A study of Mus musculus with 6 samples.

Results

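The genes described here encode the proteins of the cytosolic ribosome. They were the rows of the count table whose Ensembl identifier maps to a mouse symbol of the form Rpl or Rps with a number and at most 1 of the letters a, x, y or l, or to *Rplp0*, *Rplp1*, *Rplp2* or *Rpsa*, and that GENCODE M21 lists as protein-coding. The rule found 80 genes of the 55414 listed, 49 of the large subunit and 31 of the small subunit. They cover 76 standard ribosomal proteins and 4 paralogs, *Rpl3l*, *Rpl10l*, *Rpl39l* and *Rps27l*. A further 3 symbols of this form belong to pseudogenes and were left out, and standard genes such as *Rps3a1* and *Fau* carry names outside the rule.

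Messenger RNA came from cells sorted by FACS from dissociated trunks of mouse embryos at E10.5. The cells carried *Pdx1-Cre* and the Cre-activated reporter tdTomato from the *Rosa26* locus, in 3 libraries of miR-302WT embryos (WT1 to WT3) and 3 of miR-302KO embryos (KO1 to KO3). All 6 libraries were from *Pdx1-Cre*+, tdTomato+ cells, so the WT libraries carry the Cre and the reporter too, while *mir-302* is lost in the whole KO embryo and *Pdx1-Cre* only labels cells. *Pdx1-Cre* marks gut epithelium beside pancreatic progenitors, and no source used here says how many embryos stand behind a library. P-values then measure the spread between these libraries, which may be technical.

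A ribosome joins a large and a small subunit, each a core of ribosomal RNA clad in proteins that are, for the most part, present in 1 copy each. The small subunit reads the mRNA and the large subunit forms the peptide bonds. Cells make the proteins in balance with each other and with ribosomal RNA, and most of their mRNAs start with a cytosine and a run of pyrimidines, the terminal oligopyrimidine (TOP) tract, through which growth signals set their translation. Loss of 1 copy of several of these genes in humans causes Diamond-Blackfan anemia, and in mice *Rpl38* and *Rps19* mutations give tissue-specific defects.

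The start regions are shown because a shared pyrimidine tract is the feature best known for this family. RefSeq (GRCm38.p6) gave the region around the start for 60 of the 80 genes. A C followed by at least 7 further C or T, on the coding strand only, began within 10 bases of the annotated start in 20 of the 60 (33.3%), and in 985 of 10759 other protein-coding genes tested (9.16%). With the window opened to 20 bases before and 50 after the start, the run stood in 47 of the 60 (78.3%) and in 22.9% of the others. Each window below has 30 bases with the pyrimidine run in capitals, for 12 of the genes described here.
*Rps6*, chr4:86857347-86857376, minus strand: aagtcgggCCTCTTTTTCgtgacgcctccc
*Rps15a*, chr7:118116126-118116155, minus strand: tctgccatCTTCCCTCgccggtgagtgagt
*Rps18*, chr17:33955646-33955675, minus strand: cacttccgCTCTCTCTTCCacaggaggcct
*Rps26*, chr10:128626481-128626510, minus strand: cgccggatCCTCTTTCgagtcttggctcca
*Rps27*, chr3:90213629-90213658, minus strand: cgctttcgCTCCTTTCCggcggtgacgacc
*Rpl15*, chr14:18270969-18270998, minus strand: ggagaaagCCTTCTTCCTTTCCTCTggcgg
*Rpl38*, chr11:114668572-114668601, plus strand: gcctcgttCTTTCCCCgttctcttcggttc
*Rpl39*, chrX:37085195-37085224, minus strand: tctagcgaCTTCTTCTaatcgcgttcttcc
*Rplp2*, chr7:141447639-141447668, plus strand: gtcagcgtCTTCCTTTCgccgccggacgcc
*Rpl13a*, chr7:45128722-45128751, minus strand: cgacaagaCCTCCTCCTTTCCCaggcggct
*Rpl35*, chr2:39005117-39005146, minus strand: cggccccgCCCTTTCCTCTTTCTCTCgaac
*Rps10*, chr17:27635226-27635255, minus strand: cgcgcacgCCCCTTCCTTTCCagcctccgc
The run began at the annotated start itself in *Rps15a* and *Rpl38*, and 1 base before it in *Rps6*. RefSeq starts are approximate, and a match is not a measured start of transcription. Among tested members, the median log2 fold change of KO over WT, described further on, was -0.22 in the 20 with a run near the start and -0.23 in the 37 with an entry and no such run.

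The strand lost in the KO is shown for the same reason, since a target site would have to match its seed, bases 2 to 8, here in capitals.
mmu-miR-302b-3p, chr3:127545275-127545297, plus strand: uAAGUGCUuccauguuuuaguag
mmu-miR-302d-3p, chr3:127545665-127545687, plus strand: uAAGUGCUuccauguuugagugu
mmu-miR-302c-3p, chr3:127545406-127545427, plus strand: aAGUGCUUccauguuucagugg
The first pair share the seed AAGUGCU, while the sequence listed for mmu-miR-302c-3p lacks the leading U. The longest annotated 3′UTRs of the ribosomal protein genes were searched on the coding strand for AGCACTT and GCACTTA. At least 1 match was found in 7 of the 80 genes (8.75%) and in 20.5% of the tested protein-coding genes, whose 3′UTRs were longer, with a median of 1170 bases against 175. For 5 of the 7 genes the matches are shown in capitals with up to 8 bases on each side, from GENCODE M21 (GRCm38).
*Rpl11*, chr4:136049882-136049889, minus strand: ggaccacaAGCACTTAaagaaagc
*Rps15a*, chr7:118104708-118104714, minus strand: ttgttaagAGCACTTgctgctcc
*Rpsa*, chr9:120132051-120132057, plus strand: ctgtgaatAGCACTTgggctggg
*Rpsa*, chr9:120132185-120132191, plus strand: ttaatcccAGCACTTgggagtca
*Rpl23*, chr11:97777769-97777775, minus strand: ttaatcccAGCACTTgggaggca
*Rpl37*, chr15:5119069-5119075, plus strand: ttattcccAGCACTTggtgacag
The same 8 bases, ttaatccc, stand before the match in *Rpl23* and before the downstream match in *Rpsa*. Repeats were not annotated here. In *Rps15a* the match lies 4386 bases after the stop codon of a 3′UTR of 4728 bases. A match is a description and not a measured site.

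Counts per library summed to 17352498 to 26634523. The hairpins of *mir-302* are too short for these polyadenylated libraries. They had 0 counts in every library except for 2 counts of *Mir302d* in KO3, which is under the 3 counts that a count of 0 allows, so these rows do not check the genotype labels. Levels are normalised read counts, scaled to library size by TMM and written CPM. *Pdx1* was at 90.6 to 106.1 CPM in WT and 73.1 to 107.5 in KO, and none of the 12 pancreatic progenitor markers was under 1 CPM in all libraries. Genes of other cells varied between libraries. Summed over the list, erythroid markers reached 16293 CPM in WT3, 6587 in KO1 and 346.7 in KO3 and stayed between 1.20 and 4.64 in the other libraries. Mesenchyme markers were at 47.1 CPM in KO2 and at 185.4 to 1074 elsewhere, and liver markers ran from 655.3 CPM in KO2 to 2063 in KO3. Endocrine markers ran from 1069 CPM in WT1 to 5581 in KO2.

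Ribosomal protein genes held a small and variable part of each library. Their counts made up 2.0%, 1.73% and 1.81% of all counts in WT1, WT2 and WT3, and 1.58%, 1.80% and 1.43% in KO1, KO2 and KO3. KO1 and KO3 lay below every WT library and KO2 lay within the WT range, so the genotypes overlapped. The mean share was 1.85% ± 0.139 (SD, n = 3) in WT and 1.6% ± 0.188 (SD, n = 3) in KO, a difference of -0.246 percentage points. In such bulk samples, fewer cells with a high level and less RNA per cell cannot be told apart. The 10 genes with most counts held 35.8% of the family's counts, led by *Rplp0* with 4.95% and *Rpl4* with 4.71%.

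Levels of the genes spanned a wide range. They are given here as CPM per kb of the median-length coding transcript in GENCODE M21, the scale used to compare levels between genes. In the large subunit, *Rpl13* was highest at 795.2 ± 86.8 in WT and 724.4 ± 92.8 in KO (SD, n = 3). Among the next were the stalk protein gene *Rplp0*, *Rpl3*, whose protein lies near the peptidyl transferase centre, and *Rpl4*, part of the exit tunnel. In the small subunit, *Rps14* led at 715.3 ± 81.6 in WT and 654.2 ± 66.2 in KO, followed by *Rps18*, *Rps6*, the target of S6 kinases, and *Rps2*. Steps between neighbours were small: in only 4 of the 79 neighbouring pairs in this order did the 6 libraries of the higher gene all lie above those of the next.

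**Figure D1:**
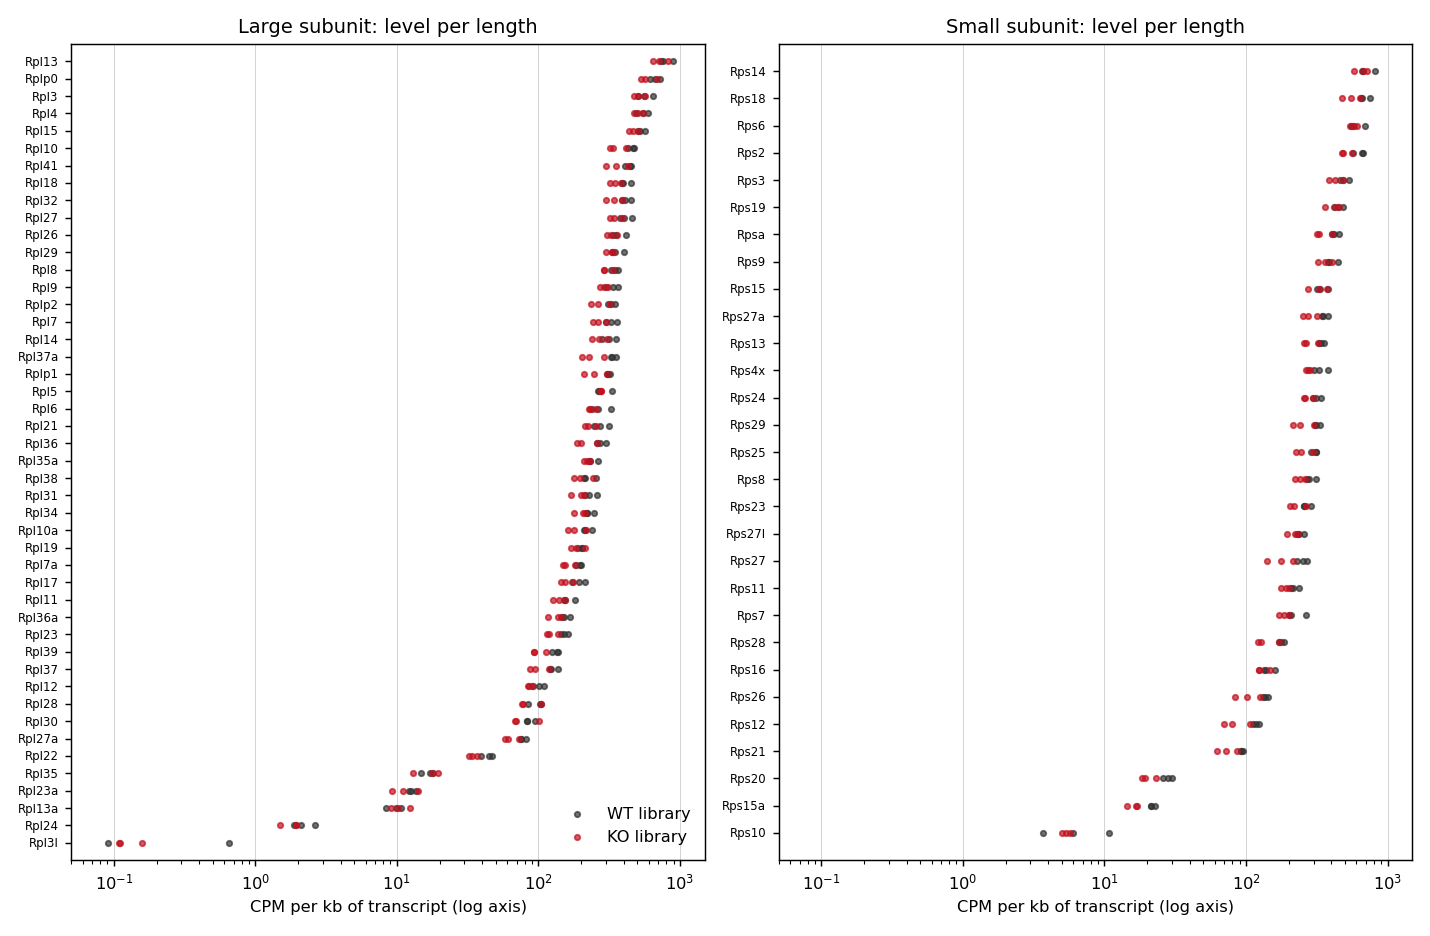
Level of each ribosomal protein gene in CPM per kb of transcript (log axis), large subunit on the left and small subunit on the right, ordered by the mean over 6 libraries, with 1 point per library (dark, WT; red, KO). *Rpl10l* and *Rpl39l*, at or near 0, and 3 further genes are not drawn. Most genes form a continuous slope. *Rpl24*, *Rps10*, *Rpl13a*, *Rpl23a* and *Rpl35* lie at its low end, all at or under 16.7, with *Rps15a* next at 18.9, and the paralog *Rpl3l* is lowest.

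A few standard genes were very low. *Rpl24* had 27, 32 and 29 counts in the WT libraries and 27, 23 and 24 in the KO libraries, a level of 1.99 CPM per kb over all libraries. *Rps10* stood at 6.06, *Rpl13a* at 10.1, *Rpl23a* at 12.1 and *Rpl35* at 16.7. These 5 are also the only members that share at least 50% of the exonic bases of their transcript with another gene annotated in GENCODE M21. The limit was set after their values were seen, and 1.70% of tested protein-coding genes pass it. *Rpl5*, just under the limit with 46.6% shared, stood at 281.0 CPM per kb. The sharing of *Rpl23a* and *Rpl35*, like that of *Rpl5*, was with genes on the opposite strand only. The partner of *Rpl24* is Gm28037, that of *Rpl13a* is Gm45713, that of *Rpl23a* is *Tlcd1*, and *Rps10* overlaps a read-through model named RPS10-NUDT3. The median of tested members with less sharing was 282 CPM per kb. How the authors' counting treated reads on more than 1 gene is not given in the sources used here, so values of these 5 genes are uncertain. *Rps15a* and *Rps20* came next, at 18.9 and 24.2, and for both the transcript length was large, 5130 and 3706 bases. Over the shortest coding transcript of *Rps15a*, of 640 bases, its level would be 151. *Rpl22*, needed in mice mainly by developing lymphocytes, was at 38.9.

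The paralogs known from single tissues were near 0. *Rpl10l*, known from the testis, had 0 counts in every library, which allows up to 3 counts. *Rpl39l*, also known from the testis, had 1 count in WT2 and 0 elsewhere. *Rpl3l*, known from striated muscle, had 2, 12 and 0 counts in WT and 3, 2 and 3 in KO. *Rps27l* was the exception among the paralogs. Per length it stood at 1.11, 0.911 and 0.879 times *Rps27* in the WT libraries and at 1.25, 1.08 and 1.38 times in the KO libraries, and only KO2 lay within the WT range. Outside the rule, *Rpl7l1* was at 0.651 to 0.706 times *Rpl7* per length in WT and at 0.749 to 0.976 in KO, and *Rpl22l1* at 0.257 to 0.403 times *Rpl22* over all libraries.

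Rows named as pseudogenes of these genes took counts too. Of 299 such rows, 219 had at least 1 count, and together they held 0.118% to 0.17% of each library, or 8.28 to 9.30 counts for every 100 on the members. *Rps6-ps4* had the most, 32486 counts over the 6 libraries, and the rows of *Rps6* summed to 55.5 per 100 counts of *Rps6* itself. Sequences of these copies are close to those of the parents, and which reads belong to which cannot be settled from counts. The same figure was 35.1 to 43.4 for *Rpl15*, *Rpl10*, *Rpl35a*, *Rpl17* and *Rpl36a*, and 310 and 393.8 for the low genes *Rpl23a* and *Rps10*. Levels of at least these 8 genes are uncertain for this reason. Only rows with -ps in the name were counted here. *Rps4l*, a pseudogene left out by the rule, had 16788 counts over the 6 libraries, beside 36549 on *Rps4x*, whose level is uncertain too.

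The comparison of KO with WT asks whether loss of *mir-302* went with a change in ribosomal protein mRNA. No member passed an adjusted p of 0.05 in edgeR's quasi-likelihood test over all genes, where 0 of 16353 genes did (0%). Of the 80 members, 77 passed the filter on low counts, the other 3 being *Rpl3l*, *Rpl10l* and *Rpl39l*. The log2 fold change of KO over WT was below 0 in 75 of the 77, against 54.4% of all genes tested, and above 0 only in *Rpl13a* and *Rpl35*. The median was -0.24, the lowest -0.50 and the highest 0.12, and the median over all genes tested was -0.02. Over the 13756 tested genes whose transcripts stay under 75% GC in every stretch of 200 bases, as those of all members but *Rpsa* do, the median was -0.04. At an unadjusted p under 0.05, 33 of the 77 were lower in KO and 0 higher, where 3.97% of all genes tested were lower and 6.42% higher. All KO libraries lay below all WT libraries in 34 of the 77, against 7.99% of all genes tested, and above them in 0, against 8.36%. These genes share their libraries and move together, so the counts are not 77 separate observations. DESeq2 called 2 members, *Rps15a* and *Rps20*, both lower in KO, where 0.642% of the 14489 genes with an adjusted p were called lower and 4.2% higher.

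**Figure D2:**
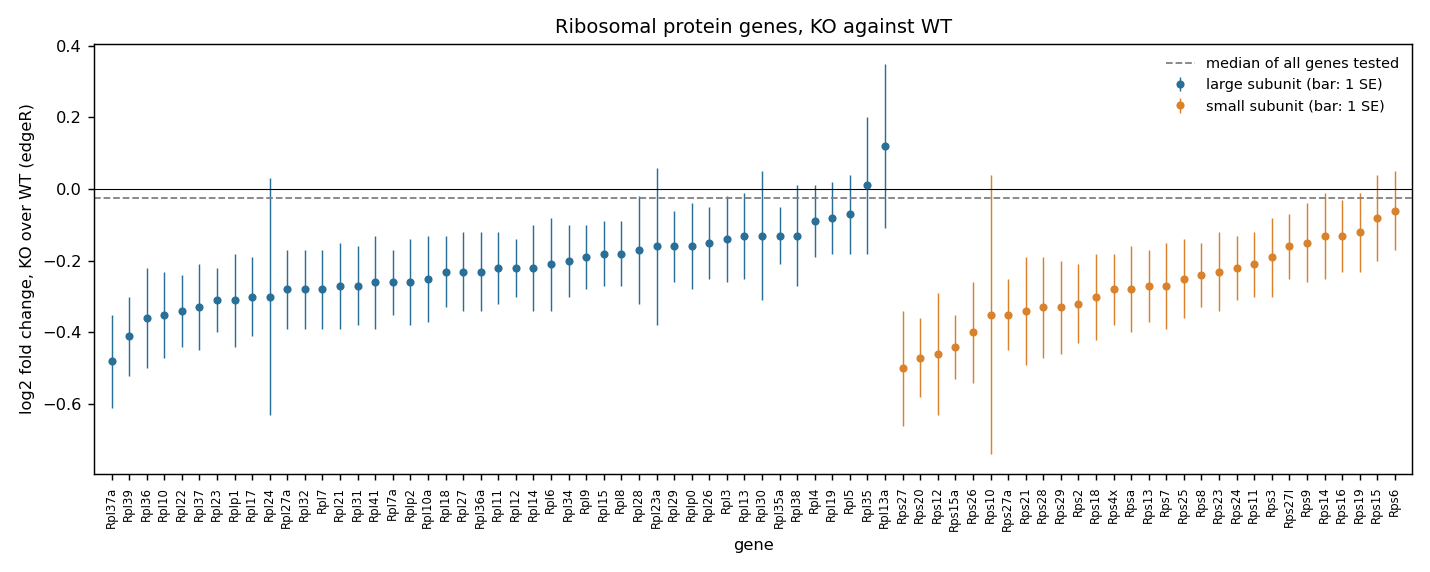
Log2 fold change of KO over WT from edgeR for 74 of the 77 tested genes, ordered within each subunit, with bars of 1 SE and a dashed line at the median of all genes tested. Only *Rpl35* and *Rpl13a* lie above 0, and values run from -0.50 (*Rps27*) to 0.12 (*Rpl13a*).

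The libraries did not split cleanly by genotype. Taking each gene's log2 CPM less its mean over the 6 libraries, the median over the 77 genes was 0.23 in WT1, 0.02 in WT2 and 0.09 in WT3, and -0.16 in KO1, 0.05 in KO2 and -0.26 in KO3. KO3 was the lowest library for 68 of the genes and WT1 the highest for 62. KO1 and KO3 both lay below every WT library for 67 of the genes, whereas KO2 did so for 34, lay within the WT range for 37 and above it for 6. Shares of all genes tested with the same orders of libraries were not computed, so these counts describe the members only. Over all genes tested, the median of such deviations, with a small constant added to CPM, lay between -0.01 and 0.02 in every library. TMM scaling itself holds that median near 0, so it is no separate comparison. KO2 is also the library with the lowest mesenchyme and liver markers and the highest endocrine markers, while WT1, the highest library for most members, has the lowest endocrine markers. The part of other cells in this result was not tested. The share of counts on mitochondrial genes was 0.345% to 0.442% in WT and 0.223% to 0.290% in KO, and its part in this result was not tested either.

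**Figure D3:**
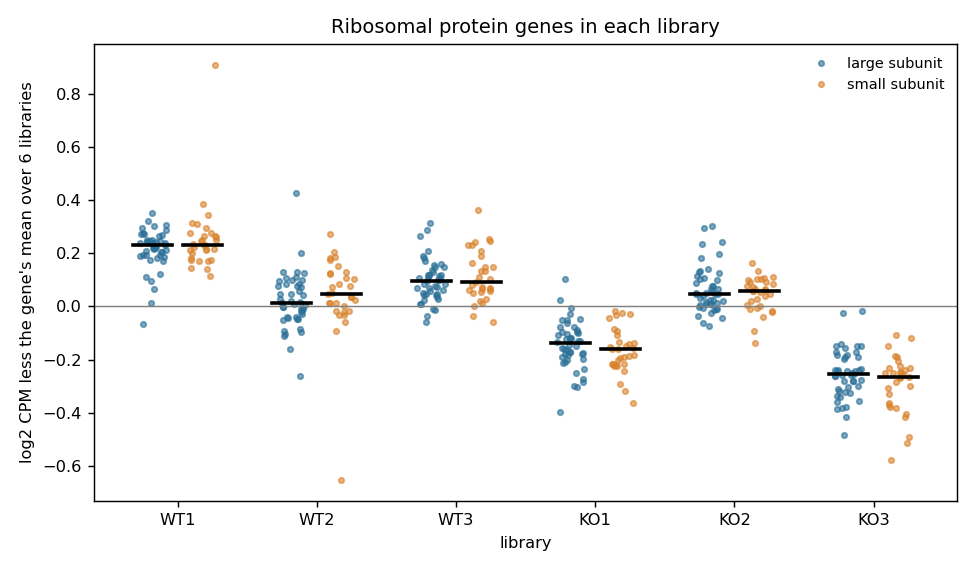
Log2 CPM of each of the 77 tested genes less its mean over 6 libraries, by library, with large subunit genes in blue, small subunit genes in orange and black bars at the medians. WT1 is high, KO1 and KO3 are low, and KO2 lies between WT2 and WT3; the points far from the rest are low-count genes such as *Rps10* in WT1 and WT2.

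Leaving out libraries moved the size and not the sign of the median. It was -0.32 without KO2, -0.14 without KO3 and -0.17 without WT1, and -0.21 without WT3 and KO1, the libraries with most erythroid RNA. Counts at an unadjusted p under 0.05 were less stable. They were 45 without KO2 and 19 without WT2, beside 4.56% and 2.56% of all genes tested. They were 9 without WT1, 6 without WT3, 6 without KO1 and 6 without KO3, beside 2.94%, 1.84%, 2.18% and 4.43%. Without WT3 and KO1 together, 1 was past this p, beside 1.16%. Scaling on genes other than the ribosomal protein genes gave 19. Scaling on genes in which no 200 bases of the transcript reach 75% GC, an alternative chosen after the data were seen, gave 19 too. The share of all genes tested was not computed for either scaling.

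The smallest p-values of the family were those of *Rps15a* and *Rps20*, both of the small subunit. In CPM, *Rps15a* stood at 117.5, 109.0 and 109.4 in WT and at 85.8, 87.2 and 73.8 in KO. All KO values lay below all WT values, and KO2 did not stand near WT. The log2 fold change was -0.44 (SE 0.09), with an adjusted p of 0.134 in edgeR and 0.0132 in DESeq2, and it ran from -0.47 to -0.34 when single libraries were left out. *Rps20* was at 111.6, 95.9 and 104.1 CPM in WT and at 68.5, 85.7 and 71.3 in KO. The groups again did not overlap, with KO2 nearest to WT. Its log2 fold change was -0.47 (SE 0.11), with an adjusted p of 0.163 in edgeR and 0.0234 in DESeq2. The 7 genes with a seed match had a median log2 fold change of -0.31 and the 70 other tested members one of -0.23, with a range of -0.50 to 0.12.

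Other genes of the small subunit lay in the same direction without passing a test. *Rps27*, a zinc finger protein of the small subunit, was at 79.7, 87.2 and 92.8 CPM in WT and at 61.0, 74.6 and 48.4 in KO. Its log2 fold change of -0.50 (SE 0.16, edgeR adjusted p = 0.292) was the lowest of all members, while its paralog *Rps27l* was at -0.16 (SE 0.09, edgeR adjusted p = 0.651). The difference between the paralogs was not tested. *Rps27a*, which is made as a fusion with ubiquitin, was at 242.7, 220.8 and 223.8 CPM in WT and at 173.9, 203.0 and 160.8 in KO, without overlap. *Rps12* had a log2 fold change of -0.46 (SE 0.17), from 55.3 to 60.7 CPM in WT and 34.2 to 52.5 in KO. *Rpsa*, the laminin receptor, the only gene of the family whose transcript reaches 75% GC over some 200 bases, was at -0.28 (SE 0.12), and KO2 at 648.0 CPM lay just above WT2 at 647.4. *Rps6* was closest to 0 in the small subunit, at -0.06 (SE 0.11), with 485.4 to 607.6 CPM in WT and 476.0 to 538.4 in KO.

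In the large subunit, *Rpl39*, *Rpl37a*, *Rpl22* and *Rpl23* had the smallest p-values, and none passed the test. *Rpl39*, whose protein lies at the end of the exit tunnel, was at 83.1, 75.9 and 84.5 CPM in WT and at 57.1, 69.6 and 57.1 in KO. All KO libraries were below all WT libraries, with a log2 fold change of -0.41 (SE 0.11, edgeR adjusted p = 0.202). *Rpl37a*, a zinc finger protein gene, was at 183.6, 180.8 and 195.4 CPM in WT and at 127.5, 162.3 and 112.5 in KO, a log2 fold change of -0.48 (SE 0.13, edgeR adjusted p = 0.221). WT values were tight and KO values spread, with KO2 nearest to WT. *Rpl22* (-0.34, SE 0.10) and *Rpl23* (-0.31, SE 0.09) had groups that did not overlap either. *Rpl10*, which joins the subunit last and completes its active site, was at 344.6 to 377.9 CPM in WT and 254.1 to 333.5 in KO, a log2 fold change of -0.35 (SE 0.12, edgeR adjusted p = 0.315).

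**Figure D4:**
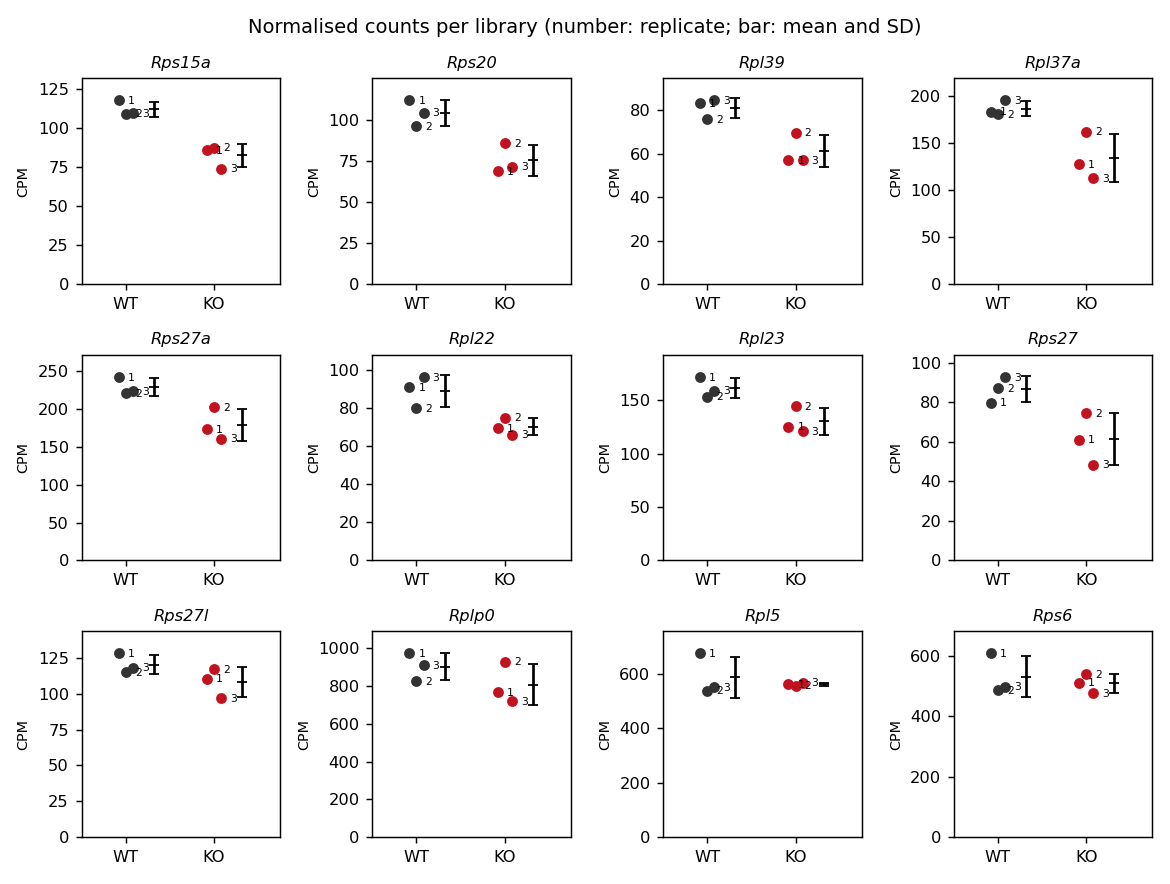
CPM of 12 ribosomal protein genes in each library, with the replicate number beside each point and the mean ± SD of the genotype at its right; every axis starts at 0. From *Rps15a* to *Rps27* all KO libraries lie below all WT libraries, while *Rps27l*, *Rplp0*, *Rpl5* and *Rps6* overlap.

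The stalk, which recruits translation factors, is built from *Rplp0* and pairs of *Rplp1* and *Rplp2*. *Rplp0* was at 973.7, 827.6 and 911.1 CPM in WT and at 768.9, 930.5 and 721.6 in KO. KO2 lay above both WT2 and WT3, and the log2 fold change was -0.16 (SE 0.12). *Rplp1* (-0.31, SE 0.13) had groups that did not overlap and *Rplp2* (-0.26, SE 0.12) had groups that did. *Rpl5* and *Rpl11*, with a small ribosomal RNA, hold the ubiquitin ligase Mdm2 when ribosome assembly fails. The difference between their log2 fold changes was not tested. *Rpl5* was at 675.3, 537.4 and 550.1 CPM in WT and at 562.1, 555.8 and 566.8 in KO, a log2 fold change of -0.07 (SE 0.11) that rests on WT1: without it the value was 0.05. *Rpl11* was at 126.6 to 151.8 CPM in WT and 106.1 to 127.3 in KO, a log2 fold change of -0.22 (SE 0.10). *Rpl26*, which can bind p53 mRNA, was at -0.15 (SE 0.10).

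Of genes often named for selective translation, *Rpl38* was at -0.13 (SE 0.14), *Rpl10a* at -0.25 (SE 0.12) and *Rpl24* at -0.30 (SE 0.33), each with overlapping groups. *Rpl41*, the shortest protein of the family, was at -0.26 (SE 0.13). For none of these was a difference detectable beyond the spread between libraries. The 15 genes of the list for Diamond-Blackfan anemia all had log2 fold changes below 0, with a median of -0.23. Of them, 5 had an unadjusted p under 0.05, among them *Rps24*, *Rps26*, *Rps27* and *Rps29*, beside 33 of the 77 tested members and 3.97% of all genes tested. *Rps19*, the gene most often mutated in the disease, was at -0.12 (SE 0.11).

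Genes of both subunits had medians below 0. The median log2 fold change was -0.22 over the 46 tested large subunit genes and -0.27 over the 31 small subunit genes. All KO libraries lay below all WT libraries in 17 of the 46 and 17 of the 31, against 7.99% of all genes tested, and 16 of the 46 and 17 of the 31 were lower at an unadjusted p under 0.05, against 3.97%. The difference between the subunits was not tested. Summed counts of the large subunit were 1.479, 1.450 and 1.484 times those of the small subunit in WT and 1.507, 1.499 and 1.525 times in KO. Every KO ratio, that of KO2 included, was above every WT ratio, by a mean of 1.51 against 1.47. Because the members were chosen with results known, no test is given for this ratio. The difference of the medians, 0.05, was 0.02 without KO1. Across the 77 members, Spearman's rho of the log2 fold change was 0.12 with transcript length and 0.20 with GC content. It was 0.25 with level per length and 0.29 with mean CPM not divided by length. These values are a description over genes that share all libraries.

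Genes that make ribosomes were read beside the proteins. Of the 11 ribosomal protein genes outside the rule and their relatives, 8 had a log2 fold change below 0, with a median of -0.27. *Rps3a1* was at 467.1, 374.8 and 417.2 CPM in WT and at 341.1, 380.1 and 316.8 in KO (-0.28, SE 0.11), and *Rack1*, a scaffold on the small subunit, was at -0.06 (SE 0.09). Translation factors and some other genes, listed together for TOP mRNAs, were below 0 in 17 of 19, with a median of -0.16. Among them *Pabpc1*, the poly(A)-binding protein, was at 126.4 to 150.0 CPM in WT and 113.6 to 117.0 in KO (-0.26, SE 0.08, edgeR adjusted p = 0.272), and *Tpt1* was at -0.24 (SE 0.09). Of the 13 genes of this list with a start region, 4 (30.8%) had a pyrimidine run within 10 bases of the start. Genes of ribosomal RNA transcription were below 0 in 15 of 18, with a median of -0.14, and the smallest p-values were those of *Polr1a*, the largest subunit of RNA polymerase I (-0.35, SE 0.13), and *Polr1d* (-0.21, SE 0.09).

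Assembly factors lay nearer to 0 as lists. Medians were -0.07 for 28 genes of nucleolar processing, -0.01 for 35 of large subunit assembly, -0.07 for 19 of small subunit assembly, -0.06 for 13 chaperones of ribosomal proteins and -0.01 for 19 regulators. DESeq2 called 3 of the 35 genes of large subunit assembly, all higher in KO, where it called 4.2% of all genes with an adjusted p higher. *Nol9*, a kinase that processes ribosomal RNA, was at 50.4, 63.5 and 41.9 CPM in WT and at 103.3, 88.4 and 99.3 in KO (0.90, SE 0.16, DESeq2 adjusted p = 1.9e-05, edgeR adjusted p = 0.132). *Noc2l* (0.69, SE 0.15) and *Rrs1* (0.67, SE 0.15) also had all KO libraries above all WT libraries. The transcripts of these 3 genes reach 77.5% to 79.0% GC over 200 bases, and of the 2556 tested genes that reach 75%, DESeq2 called 430 higher. The median log2 fold change of those genes was 0.17. The part of GC content in these values was not tested. *Ipo7*, an importer of ribosomal proteins, was the 1 chaperone of 13 that DESeq2 called, where it called 0.642% of all genes with an adjusted p lower. *Ipo7* was at 60.8, 71.1 and 94.3 CPM in WT and at 34.1, 58.9 and 41.0 in KO (-0.76, SE 0.24, DESeq2 adjusted p = 0.0352, edgeR adjusted p = 0.281). Without WT3 and KO1 its log2 fold change was -0.38. *Mycn*, a driver of ribosome production, was at 55.8 to 65.0 CPM in WT and 60.6 to 102.0 in KO, and *Tsc1*, a brake on mTOR, at -0.40 (SE 0.16), both with overlapping groups. The difference between these lists and the ribosomal protein genes was not tested.

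**Figure D5:**
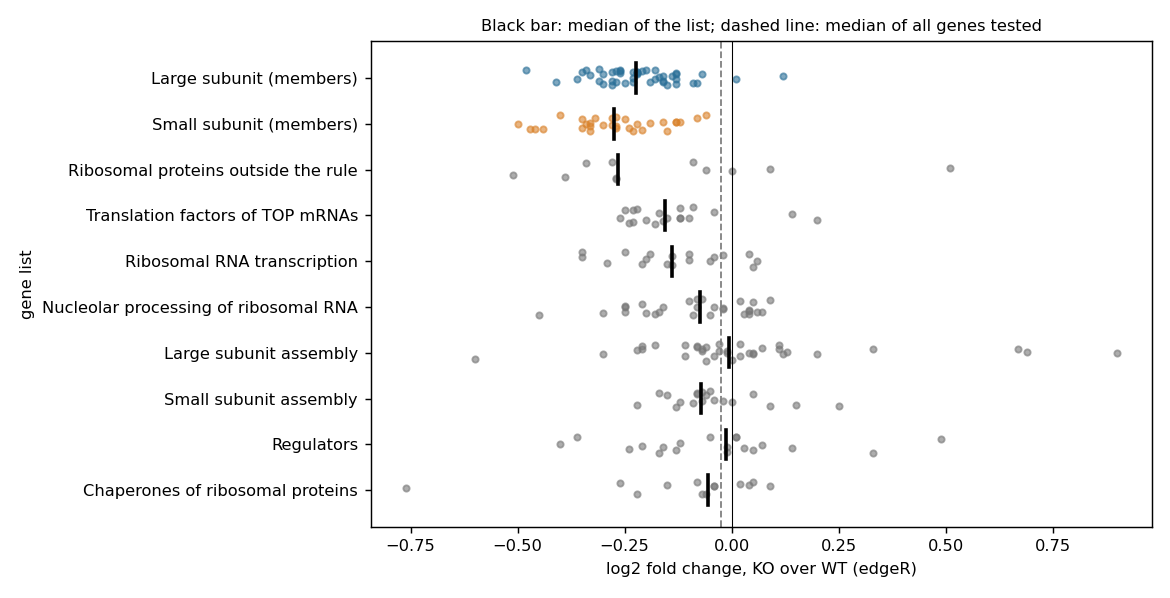
Log2 fold change of KO over WT from edgeR for the ribosomal protein genes of each subunit and 8 lists of genes of ribosome production, with 1 point per gene, a black bar at the median of each list and a dashed line at the median of all genes tested. The members lie between -0.50 and 0.12, and *Nol9*, *Noc2l* and *Rrs1* stand at the right of large subunit assembly.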

How the data were processed

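Polyadenylated mRNA of 6 samples was made into libraries with SMART-seq v4 and Nextera XT. The authors used STAR for alignment to GRCm39 and GenomicAlignments for counting per gene, and the deposited values are whole-number counts without normalization. The annotation, strand setting and treatment of reads on several genes are not given in the sources used here. The submitters' processing notes also name DESeq2.

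From these counts, edgeR 4.0.16 in R 4.3.3 (filterByExpr, TMM, glmQLFit, glmQLFTest, genotype as the only term) was run over all genes, with Benjamini-Hochberg adjustment and a threshold of 0.05. The standard error was the fold change (log2) over the root of F. DESeq2 1.42.0 and 13 other settings were alternatives. Scripts were tested on simulated data with larger fold changes than those of the members, so recovery of changes as small as theirs was not tested. Symbols were found for 94.0% of identifiers. Lengths, overlaps and 3′UTRs came from GENCODE M21 (GRCm38) and start regions from RefSeq, which are not the build of the counts. Replicates were compared by chi-square per degree of freedom (25.3 to 41.0), so no library was a duplicate. Depth, 17352498 to 26634523 counts per library, limits low genes, and limits from counts cover counting error only.

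The members and lists were chosen with earlier results of these data known. Named genes were the 5 highest and 5 lowest per length in each subunit, up to 8 with the smallest unadjusted p under 0.05 in each direction, genes of known roles, up to 4 examples of the anemia list, paralogs, and 2 genes per direction in other lists. *Rps12*, *Rack1* and *Rrs1* were named after their values were seen. A few genes and 1 sequence are not reported here.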

Additional observations from a re-analysis of the deposited data

How the results depend on the processing

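The median log2 fold change of the ribosomal protein genes stayed below 0 under every setting run, from -0.32 to -0.14 when single libraries were left out, and -0.26 over the members that share no exonic base with another gene, a choice made after the data were seen. The difference of the subunits' medians was 0.03 without WT3 and KO1 together, and 0.02 to 0.06 without single libraries. The difference in the share of counts ran from -0.346 to -0.159 percentage points without single libraries.

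The number of genes called was 701 with DESeq2, 264 with no filter on low counts and 0 to 217 without single libraries, the highest without WT2. Members called were 2 with DESeq2 and 0 under all other settings. The cause of these differences was not tested.

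Replicate numbers are shared between genotypes in the labels. Same-numbered libraries correlated in their deviations by -0.211, 0.251 and 0.078, and libraries of unlike number by -0.307 to 0.336. With 3 libraries per genotype, these values can neither show nor exclude a pairing. With the replicate block 0 genes were called, the median was -0.24, the difference of subunits 0.05, and *Rpl35* was at -0.01.

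Of 686 values of 49 named genes under alternatives, 11 changed sign and 9 were newly past the threshold, among them *Rps15a* and *Rps20* with DESeq2. Besides *Rpl35* with the block, all changes of sign arose when single libraries were left out, in genes near 0 or with few counts. These ranges were -0.09 to 0.20 for *Rpl35*, -0.32 to 0.0017 for *Rpl23a*, -0.24 to 8.8e-05 for *Rpl38*, -0.10 to 0.05 for *Rpl5*, -0.62 to 0.15 for *Rps10*, -0.10 to 0.05 for *Rps6* and -0.09 to 0.02 for *Rack1*.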
